A study of Mus musculus with 6 samples.

Results

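Endothelial cells line blood and lymph vessels. They are recognised by junction proteins such as Pecam1 and Cdh5, by the growth factor receptors Kdr, Tek and Tie1, by the surface sialomucins Cd34 and Emcn, by the stored clotting protein Vwf, by the adhesion molecule Esam and by Plvap, the protein of the diaphragms in fenestrated capillaries. In the intestinal mucosa these vessels run beneath the epithelium, where capillaries supply the crypts and leukocytes leave the blood. Kdr and Flt1 bind VEGF ligands, Tek binds angiopoietins, and Notch signalling between neighbouring endothelial cells sorts arterial from venous fate. The 10 genes named here, Pecam1, Cdh5, Kdr, Tek, Tie1, Cd34, Vwf, Esam, Emcn and Plvap, were chosen by symbol. All probes of the array that the platform annotation gives to one of them were taken, 15 of 45135 probes, for 10 of 19031 genes with a named probe.

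The study hybridised total RNA from colon mucosa of 6 mice, each aged 5 months and of the C57/B6 background, to Illumina bead arrays with a single biotin label. All 6 mice were APC(Min/+), an allele that predisposes to intestinal tumours, and Dnmt3a(2lox/2lox), with both copies of a de novo DNA methyltransferase gene flanked by recombination sites. The 3 Dnmt3a-deleted mice carried the transgene Fabpl(4x at -132)-Cre, also called Fabp-Cre, which by the design text deletes Dnmt3a in 30 to 50% of the cells of the mucosa. No Cre transgene was present in the 3 controls. Fabpl promoters are used to drive genes in intestinal epithelium. The labels do not say whether endothelial cells carry the deletion, and in bulk tissue fewer cells of a type and less RNA per cell cannot be told apart.

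Probes detected above background numbered 19339 to 21358 per array. Dnmt3a-deleted replicate 3 stood apart, with correlations of 0.925 to 0.9498 with the other arrays over 21183 probes, where the other 5 arrays correlated at 0.978 or more among themselves. Sex-linked transcripts marked it as female and Dnmt3a-deleted replicates 1 and 2 as male, and control replicate 1 as male and control replicates 2 and 3 as female. None of the 3 Dnmt3a probes was detected on any array, so the arrays did not check the deletion. The mucosal origin was plain from the epithelial markers, 9 of 9 of which were detected, among them the villus actin bundler Vil1 and the keratin Krt19.

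The defining endothelial genes were at or near the array background in both groups. Only 2 of the 10 genes, Vwf and Esam, had a probe detected on at least 3 of the 6 arrays, against 59.7% of all genes with a named probe. Counted by probe it was 2 of 15, against 46.9% of all probes. Detection on an array meant a deposited detection p-value under 0.05 together with a signal over that array's background level, which lay between 84.9 and 90.7 intensity units. Each array detected 3 or 4 of the 15 endothelial probes. The number was 3, 4 and 3 in control replicates 1 to 3 and 3, 4 and 3 in Dnmt3a-deleted replicates 1 to 3. Of the 15 probes, 7 were detected on 0 arrays, 2 on 1 array, 4 on 2 arrays, 1 on 4 arrays and 1 on all 6. Requiring a detection on at least 1 array raised the count to 7 genes, and requiring all 6 arrays left Esam alone.

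**Figure D1:**
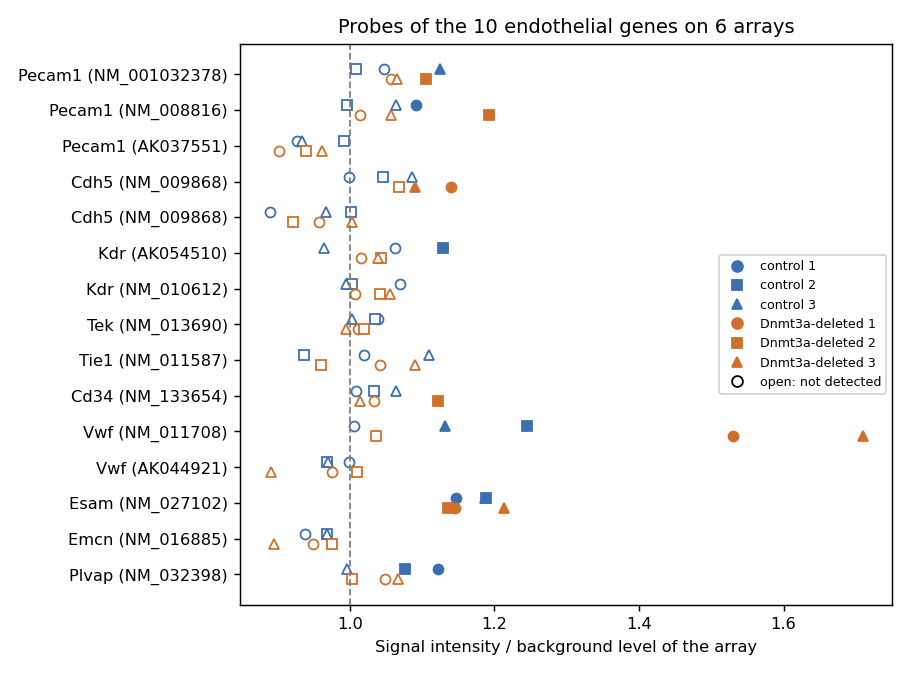
Signal of each of the 15 endothelial probes divided by the background level of the same array (x axis, no unit), by gene and target transcript (y axis), with 1 point per mouse, blue for control and orange for Dnmt3a-deleted, filled where the probe was detected. Apart from a Vwf probe, which reached 1.71, every probe lay between 0.890 and 1.21 times background, and Esam was the only gene detected in all 6 mice.

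The adhesion molecules of endothelial junctions were barely measurable. Pecam1, a homophilic adhesion molecule that platelets and leukocytes also carry, has 3 probes. The Pecam1 probe against NM_008816 read 96.0, 88.3 and 96.5 in control replicates 1 to 3 and 90.5, 107.5 and 89.7 in Dnmt3a-deleted replicates 1 to 3. It was detected in control replicate 1 and in Dnmt3a-deleted replicate 2, and the groups overlapped. The Pecam1 probe against NM_001032378 read 92.1, 89.4 and 102 in the controls and 94.3, 99.6 and 90.4 in Dnmt3a-deleted mucosa. It was detected once in each group, in control replicate 3 and again in Dnmt3a-deleted replicate 2. Both RefSeq-based probes were thus detected in the same deleted mouse but in different control mice, at no more than 1.19 times background. The Pecam1 probe against the cDNA AK037551 was detected on 0 arrays.

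Cdh5, or VE-cadherin, the cadherin of endothelial adherens junctions, has 2 probes. The brighter Cdh5 probe read 87.9, 92.7 and 98.5 in the controls and 101.6, 96.3 and 92.6 in Dnmt3a-deleted mucosa. It was detected in Dnmt3a-deleted replicates 1 and 3 and in no control mouse, at no more than 1.14 times background, and the values of the groups overlapped. The other Cdh5 probe was detected on 0 arrays. With the filter on dim probes lifted, Cdh5 had a log2 difference of 0.24 ± 0.15 (SE) and an adjusted p of 0.771 by limma, and no fold is given for a gene that the control arrays did not detect and that lay this close to background.

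The receptors were not measured reliably. Kdr, the main VEGF receptor of endothelial cells, has 2 probes. The brighter Kdr probe read 93.5, 100.04 and 87.4 in the controls and 90.5, 94.1 and 88.2 in Dnmt3a-deleted mucosa, and was detected in control replicate 2 alone. Tek, the angiopoietin receptor also called Tie2, read 91.4, 91.7 and 90.9 in the controls and 90.2, 91.9 and 84.4 in Dnmt3a-deleted mucosa. Its co-receptor Tie1 read 89.7, 83.0 and 100.6 in the controls and 92.96, 86.6 and 92.5 in Dnmt3a-deleted mucosa. Both Tek and Tie1 were detected on 0 arrays, so these values show the scatter of the background and no level of either receptor.

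The sialomucins and the capillary diaphragm protein gave the same picture. Cd34, which blood progenitor cells also carry, read 88.7, 91.6 and 96.4 in the controls and 92.2, 101.2 and 86.1 in Dnmt3a-deleted mucosa and was detected in Dnmt3a-deleted replicate 2 alone. Emcn, or endomucin, read 82.5, 85.8 and 87.8 in the controls and 84.6, 88.0 and 76.0 in Dnmt3a-deleted mucosa, below the background level on every array. Plvap read 98.7, 95.4 and 90.3 in the controls and 93.5, 90.4 and 90.6 in Dnmt3a-deleted mucosa. It was detected in control replicates 1 and 2 and in no Dnmt3a-deleted mouse, the opposite arrangement to that of Cdh5, at no more than 1.12 times background.

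Because the enzyme removed in these mice methylates CpG dinucleotides, the CpG content of the genes' promoters is given as a property of their sequence. Methylation was not measured. RefSeq promoter windows of build GRCm38.p6, running from 250 bases before to 50 bases after the transcription start, were matched for 5 of the 10 genes. The counts were 19 CpG for Kdr, 7 for Tie1, 7 for Cd34, 3 for Tek and 2 for Emcn, beside a median of 7 and quartiles of 3 and 20 over 32841 windows of the same length. The richest and the poorest window and that of Tie1 between them are printed 5′ to 3′ with each CpG in capitals. They are chr5:75978406-75978705 on the minus strand for Kdr, chr4:118489800-118490099 on the minus strand for Tie1 and chr3:137340828-137341127 on the plus strand for Emcn.
Kdr: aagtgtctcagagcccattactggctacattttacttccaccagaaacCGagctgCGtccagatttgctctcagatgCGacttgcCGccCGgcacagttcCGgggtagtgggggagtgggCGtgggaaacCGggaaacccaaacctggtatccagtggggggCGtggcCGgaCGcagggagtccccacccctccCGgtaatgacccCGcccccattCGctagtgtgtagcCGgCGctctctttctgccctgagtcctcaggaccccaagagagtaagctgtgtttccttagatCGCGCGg
Tie1: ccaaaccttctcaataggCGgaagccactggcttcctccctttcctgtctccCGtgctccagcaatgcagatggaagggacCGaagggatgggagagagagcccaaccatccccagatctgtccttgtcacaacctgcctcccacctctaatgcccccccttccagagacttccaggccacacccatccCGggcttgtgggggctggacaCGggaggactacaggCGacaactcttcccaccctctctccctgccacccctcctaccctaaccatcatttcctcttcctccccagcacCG
Emcn: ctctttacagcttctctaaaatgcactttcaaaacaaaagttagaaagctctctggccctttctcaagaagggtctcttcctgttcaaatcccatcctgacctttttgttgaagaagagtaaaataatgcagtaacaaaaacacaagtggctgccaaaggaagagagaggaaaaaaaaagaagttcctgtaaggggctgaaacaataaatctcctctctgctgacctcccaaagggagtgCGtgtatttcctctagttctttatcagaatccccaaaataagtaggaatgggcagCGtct
CpGs of the Kdr window lay along most of its length, while both CpGs of Emcn fell near its 3′ end, around the transcription start. ETS family transcription factors bind a GGAA core in endothelial promoters, so the letters CAGGAA and CCGGAA were searched on both strands. They share that core and differ in the base before the GG, so a stretch matches at most one of them on a given strand. CAGGAA was found in 4 of the 5 windows, all but Kdr, and in 30.6% of all windows. CCGGAA was found in 1, that of Kdr, and in 14.9% of all windows. These matches are letters in a window and not shown to be bound sites.

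**Figure D2:**
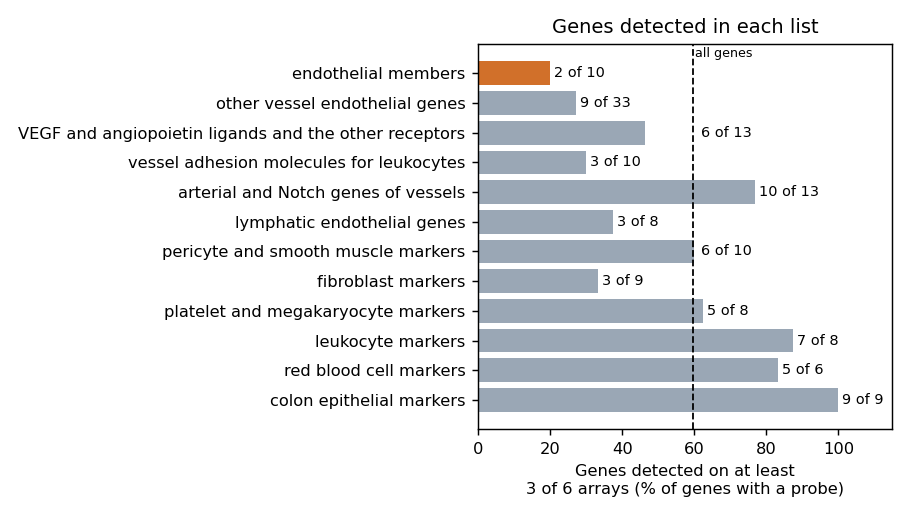
Share of genes detected on at least 3 of 6 arrays (x axis, % of genes with a probe) in each gene list (y axis), with counts at the bars and all genes, 59.7%, as the dashed line. Endothelial genes stood at 2 of 10 and other vessel endothelial genes at 9 of 33, below colon epithelial markers at 9 of 9 and leukocyte markers at 7 of 8.

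Other genes of the vessel wall were mostly undetected as well. Of 33 further vessel endothelial genes 9 were detected on at least 3 arrays. Of the 33, 18 were detected on 0 arrays, among them the VEGF receptor Flt1, the TGF-beta co-receptor Eng and the transcription factor Erg. Nostrin, 1 of the 9, had mean log2 intensities of 10.67 in the controls and 10.63 in Dnmt3a-deleted mucosa. The other detected genes of that list had group means from 5.08 to 5.80. Which cells gave the signal of a detected gene was not tested. Of 8 lymphatic genes 3 were detected, of 10 adhesion molecules for leukocytes 3, of 9 fibroblast markers 3 and of 10 pericyte and smooth muscle markers 6. The collagen gene Col1a1, the pericyte gene Rgs5 and the smooth muscle myosin gene Myh11 were detected on 0 arrays. Of 6 red blood cell markers on the array 5 were detected. The beta-globin Hbb-bs had log2 intensities of 14.01, 12.71 and 14.29 in the controls and 14.19, 12.22 and 11.17 in Dnmt3a-deleted mucosa. Globin was thus high in control replicates 1 and 3 and Dnmt3a-deleted replicate 1, lower in the other mice, and overlapped between the groups.

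The question the design asks of these genes is whether they differ between Dnmt3a-deleted and control mucosa, and it can be asked of Vwf and Esam only. Neither passed limma's test at a Benjamini-Hochberg adjusted p under 0.05, a threshold that 0.00880% of the 11370 genes tested passed (1 gene). At an unadjusted p under 0.05 the count was again 0 of 2, against 5.22% of all genes. Both differences were above 0, as were 58.3% of all genes' differences, with a median of 0.45 for the pair beside 0.055 over all genes. Both genes had overlapping groups, whereas 14.5% of all genes had groups that did not overlap.

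Vwf, the multimeric glycoprotein that endothelial cells and platelets store and that tethers platelets to injured vessels, stood furthest above background of the 10 genes, and in some mice only. Its probe against NM_011708 read 88.5, 110 and 103 intensity units in control replicates 1 to 3 and 136, 93.4 and 145 in Dnmt3a-deleted replicates 1 to 3, or 1.01, 1.24, 1.13, 1.53, 1.04 and 1.71 times background. On the log2 scale after background correction and quantile normalisation Vwf stood at 4.94, 5.68 and 5.34 in the controls and at 6.28, 5.05 and 7.05 in Dnmt3a-deleted mucosa. Dnmt3a-deleted replicates 1 and 3 lay above all 3 control mice, and replicate 2 lay inside the control range. The means were 5.32 ± 0.37 and 6.13 ± 1.01 (SD, n = 3), a log2 difference of 0.81 ± 0.47 (SE) with a 95% interval of -0.28 to 1.89 and an adjusted p of 0.700 by limma. The spread between mice of the Dnmt3a-deleted group was thus wider than the difference. No fold is given, since the probe was not detected in control replicate 1 or in Dnmt3a-deleted replicate 2 and the difference shrank to 0.54 with an offset of 50 and to 0.44 without background correction.

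The size of the Vwf difference rested on single mice. Without Dnmt3a-deleted replicate 3, the array that stood apart, it was 0.34 (adjusted p 0.933 by limma), and without Dnmt3a-deleted replicate 2 it was 1.34 (adjusted p 0.412). With sex as a term it was 1.13 (adjusted p 0.338), and with the authors' processed values 0.41 (adjusted p 0.729). The other Vwf probe, against the cDNA AK044921, was detected on 0 arrays and had log2 means of 4.84 in the controls and 4.68 in Dnmt3a-deleted mucosa, so the pattern was carried by 1 of the gene's 2 probes.

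**Figure D3:**
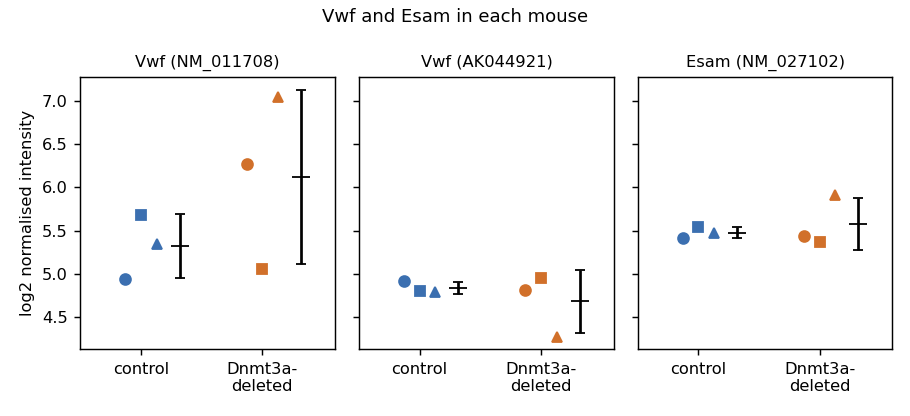
Log2 normalised intensity (y axis) of the 2 Vwf probes and the Esam probe in each mouse, blue for control and orange for Dnmt3a-deleted, with circle, square and triangle for replicates 1 to 3 and a bar for mean ± SD (n = 3). Vwf (NM_011708) reached 6.28 and 7.05 in Dnmt3a-deleted replicates 1 and 3 and 5.05 in replicate 2, while Esam stayed between 5.37 and 5.92.

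Markers of platelets, which also store Vwf, and of the cells around vessels are given beside it. Of the 8 platelet and megakaryocyte markers on the array, 5 were detected. Their summed normalised intensity ran from 229 to 296 in the controls and from 225 to 253 in Dnmt3a-deleted mucosa. Gp5, Gp6 and Ppbp were each detected on fewer than 3 arrays. Of the 5 detected platelet markers, 3 were higher in Dnmt3a-deleted mucosa and 2 lower, with a median log2 difference of 0.12. Gp1bb, a chain of the platelet receptor for Vwf, was 1 of the 2 that were lower. It was at 6.90, 6.996 and 6.21 in the controls and at 5.67, 6.27 and 5.83 in Dnmt3a-deleted mucosa. Its log2 difference was -0.78 ± 0.26 (SE), opposite in sign to that of Vwf, with an adjusted p of 0.700 by limma. Gp1bb was the 1 platelet marker of the 5 with an unadjusted p under 0.05, as had 5.22% of all genes. Among the Dnmt3a-deleted mice, replicate 3 was highest, as it was for Vwf, for 3 of the 5 platelet markers. That mouse was also highest for 7 of the 9 other endothelial genes and 5 of the 7 leukocyte markers. It was highest for 2 of the 9 epithelial and 0 of the 5 red blood cell markers. The share of all genes highest in that mouse is not given here. Of the 10 pericyte and smooth muscle markers, 6 were detected, with sums of 251 to 286 in the controls and 280 to 395 in Dnmt3a-deleted mucosa. Acta2, smooth muscle actin, stood at 5.34, 5.62 and 6.44 in the controls and at 5.85, 5.89 and 7.46 in Dnmt3a-deleted mucosa, highest in Dnmt3a-deleted replicate 3. Its difference of 0.60 was 0.24 as a mean over its kept probes and 0.071 without that mouse. With sex as a term it was 0.98, and without control replicate 3 it was 0.92. With the Dnmt3a-deleted mice compared among themselves, 2 of the 6 detected markers of this list were highest in replicate 3, 2 in replicate 1 and 2 in replicate 2. Des, the muscle intermediate filament desmin, had a log2 difference of 0.23 ± 0.17 (SE). The part of these cells in the Vwf values was not tested.

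Esam, an immunoglobulin-family adhesion molecule of endothelial tight junctions and of platelets, was detected in every mouse at a low and even level. Its probe read 100.9, 105.4 and 107.6 in the controls and 102.2, 102.4 and 102.9 in Dnmt3a-deleted mucosa. On the log2 scale Esam stood at 5.42, 5.54 and 5.48 in the controls and at 5.44, 5.37 and 5.92 in Dnmt3a-deleted mucosa. Dnmt3a-deleted replicate 1 lay within the control range, replicate 2 just below it and replicate 3 above it. The means were 5.48 ± 0.060 and 5.57 ± 0.30 (SD, n = 3), a log2 difference of 0.097 ± 0.19 (SE) with a 95% interval of -0.34 to 0.54 and an adjusted p of 0.856 by limma. The sign turned to -0.075 without Dnmt3a-deleted replicate 3 and to -0.023 with array weights. As scanned, the signal of Dnmt3a-deleted replicate 3 lay inside the control range. Divided by the background level of its array it was 1.21, against 1.15 to 1.19 in the controls.

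Vwf and Esam had a correlation of 0.84 over the 6 arrays and of 0.39 over the 5 without Dnmt3a-deleted replicate 3, given as a description of arrays that share that outlying mouse. The genes whose profile was most like the mean standardised profile of the pair were Neu2, Rpp14, Spon2, Nr1h3, Zfp384 and Atp6v0a1, with Pearson correlations of 0.993 to 0.999 over 6 arrays. With so few arrays such likeness was common, and 284 of 11368 other genes had a correlation over 0.95.

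A further list of 13 genes held VEGF and angiopoietin ligands that act on endothelial cells, other receptors of these ligands, and Apln. The receptor genes Kdr, Tek and Tie1, counted among the members, were not in it. Of the 13 genes, 6 were detected (46.2%, against 59.7% of all genes). Vegfd, Pgf, Angpt1, Angpt4, Apln, Flt1 and Flt4 were not. Of the 6, 4 were higher and 2 lower, with a median log2 difference of 0.17, and 0 passed the test adjusted over all genes (0 at an unadjusted p under 0.05). Vegfa, the main angiogenic ligand, was at 8.11, 8.41 and 8.78 in the controls and at 8.60, 8.17 and 8.97 in Dnmt3a-deleted mucosa. The groups overlapped throughout, with a log2 difference of 0.15 ± 0.26 (SE) and a 95% interval of -0.45 to 0.74. Angpt2, an angiopoietin released by activated endothelium, was at 5.47, 5.37 and 5.75 in the controls and at 5.64, 5.44 and 6.29 in Dnmt3a-deleted mucosa, a log2 difference of 0.26 (adjusted p 0.736 by limma) that was 0.011 without Dnmt3a-deleted replicate 3. The VEGF and semaphorin co-receptors Nrp1 and Nrp2 had log2 differences of 0.26 and 0.20. Both turned below 0 with array weights, to -0.015 and -0.040. Without single arrays Nrp1 was as low as 0.12 (Dnmt3a-deleted replicate 3 left out) and Nrp2 as low as 0.049 (control replicate 3 left out). The Vegfa difference turned to -0.045 without Dnmt3a-deleted replicate 3 and to -0.012 without control replicate 1.

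Arterial and Notch genes were the vessel-related list with the highest share detected, 10 of 13, of which 6 were higher and 4 lower with a median of 0.12, and 0 passed the test (0 at an unadjusted p under 0.05). Notch4, a Notch receptor known from endothelium, was at 7.18, 8.64 and 7.58 in the controls and at 8.60, 8.20 and 8.90 in Dnmt3a-deleted mucosa. Control replicate 2 lay among the Dnmt3a-deleted mice, and the log2 difference was 0.76 ± 0.37 (SE) with a 95% interval of -0.10 to 1.63 and an adjusted p of 0.700 by limma. Without control replicate 2 it was 1.18 (adjusted p 0.806) and without control replicate 1 it was 0.45 (adjusted p 0.875). A further Notch4 probe, also detected on all 6 arrays, had a difference of 0.23. Ephb4, a receptor of venous endothelium that epithelial cells also carry, was at 10.07, 10.18 and 9.80 in the controls and at 10.03, 10.23 and 11.31 in Dnmt3a-deleted mucosa, and its difference of 0.51 was 0.12 without replicate 3. Notch1 showed the same arrangement, at 6.78, 6.56 and 6.21 in the controls and 6.57, 6.77 and 7.48 in Dnmt3a-deleted mucosa, with a difference of 0.42 that was 0.15 without replicate 3. Gja5, a connexin of arterial endothelium, had a difference of -0.24 (adjusted p 0.703 by limma), and of -0.16 without Dnmt3a-deleted replicate 2. Its probe was detected on 3 control arrays and 1 Dnmt3a-deleted array, so its sign was favoured by the filter on dim probes.

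**Figure D4:**
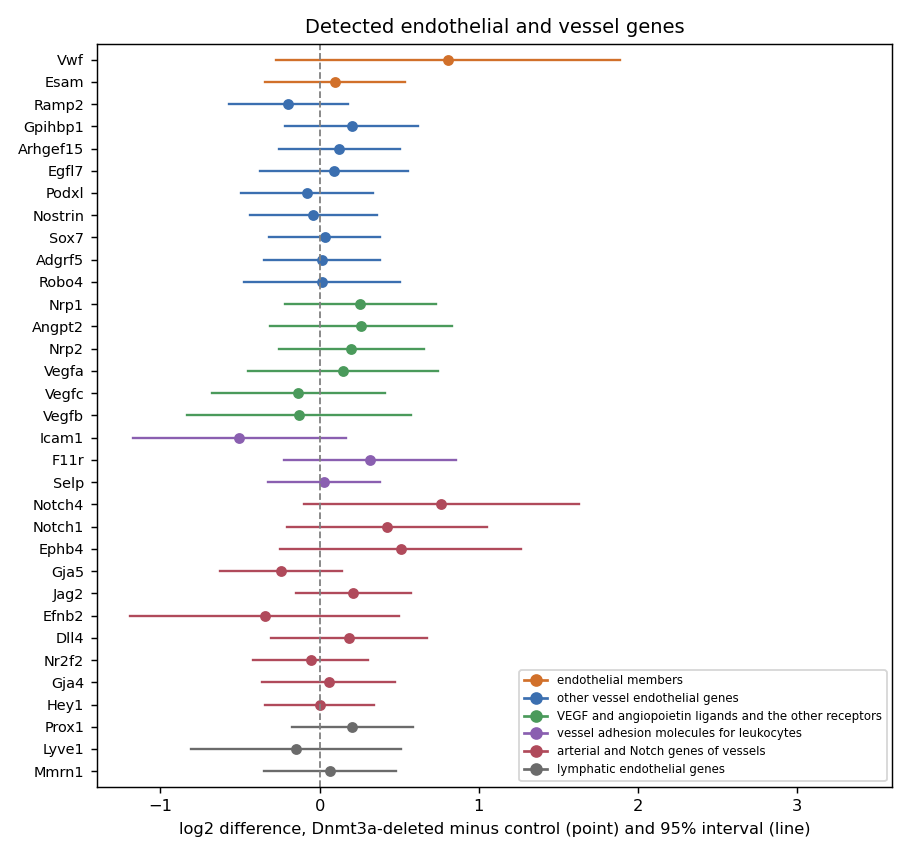
Log2 difference, Dnmt3a-deleted minus control (x axis, points), with its 95% interval from limma (lines), for every detected gene of the endothelial list and of the other vessel lists (y axis, coloured by list; n = 3 mice per group). Every interval spans 0, and the widest among the endothelial genes is that of Vwf, from -0.28 to 1.89.

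The remaining vessel lists also held 0 genes past the test. Of the 9 other endothelial genes detected, 6 were higher and 3 lower with a median of 0.015 and a range from -0.20 to 0.20. Ramp2, a partner of the adrenomedullin receptor, was at 5.80, 5.71 and 5.59 in the controls and at 5.44, 5.39 and 5.69 in Dnmt3a-deleted mucosa. Its log2 difference was -0.20 ± 0.16 (SE). Gpihbp1, which carries lipoprotein lipase across capillary endothelium, had a log2 difference of 0.20 ± 0.18 (SE), which was 0.085 without control replicate 1 and 0.098 without Dnmt3a-deleted replicate 3. Among adhesion molecules for leukocytes, Icam1 was at 6.74, 6.62 and 7.41 in the controls and at 6.59, 6.74 and 5.92 in Dnmt3a-deleted mucosa, a log2 difference of -0.50 (adjusted p 0.700 by limma), with overlapping groups. Leaving out the third control, leaving out the third Dnmt3a-deleted mouse and using array weights each gave -0.26. Leaving out the second control gave -0.66 and leaving out the second Dnmt3a-deleted mouse gave -0.67. Madcam1, the gut addressin, was detected on 0 arrays and Vcam1 on fewer than 3. Among lymphatic genes Prox1, the lymphatic transcription factor, had a log2 difference of 0.21 (0.12 without control replicate 1, 0.32 without control replicate 2). Prox1 was detected on 1 control and 3 Dnmt3a-deleted arrays, so its sign was favoured by the filter on dim probes. Lyve1, a hyaluronan receptor, had a log2 difference of -0.15, which turned to 0.32 with array weights and to 0.069 without control replicate 3.

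Leukocyte markers, which matter here because Pecam1 is also a leukocyte gene, were detected for 7 of 8 genes. All 7 differences were below 0, as were 41.7% of all genes' differences, with a median of -0.79. They ran from -1.08 for Cd3e to -0.070 for Ptprc, whose groups overlapped (adjusted p 0.877 by limma). The summed intensity of the 7 markers ran from 1965 to 2617 in the controls and from 965 to 1617 in Dnmt3a-deleted mucosa. Cd52 and Cd3e had log2 differences of -0.87 and -1.08, both with an adjusted p of 0.700 by limma. With array weights both passed the threshold, at -1.05 (adjusted p 0.0444) and -1.31 (adjusted p 0.0436). At an unadjusted p under 0.05 there were 5 of the 7, against 5.22% of all genes. Among both the 7 and the 5 was Cd53, detected on 3 control and 0 Dnmt3a-deleted arrays. Cd53 thus passed the filter only through the group where it was higher, and its sign and p were favoured by that filter. The Pecam1 probes against NM_001032378 and NM_008816 were each detected in 1 mouse of each group, too few for a difference to be read. Less leukocyte RNA and fewer leukocytes cannot be told apart, and the part of leukocytes in the Pecam1 signal was not tested.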

How the data were processed

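RNA of 6 colon mucosa samples, 3 control and 3 Dnmt3a-deleted, each from its own animal by the labels, was measured on Illumina bead arrays. The deposited unprocessed table holds a mean signal intensity per probe, linear and with background, and a deposited detection p-value that was also small for 6320 to 7410 probes per array dimmer than background. The authors also deposited processed intensities whose between-array method is not given in the sources used here. Unprocessed intensities were background corrected with limma 3.58.1 in R 4.3.3 (normexp, saddle-point, offset 16), quantile normalised and put on the log2 scale. An array's background level was the median signal of probes with a detection p over 0.97. Probes detected on at least 3 arrays were kept (21183), and a gene's brightest kept probe stood for it (11370 genes). Of 45135 probes, 34773 had 1 symbol, 18 several and 10344 none here. Symbols were updated by gene number for 34695 with a RefSeq table of GRCm38.p6. Groups were compared with lmFit and eBayes, 2-sided, with Benjamini-Hochberg adjustment over all genes and no covariate. The code was tested on simulated data. Summed list intensities add linear normalised values of kept genes. Members and gene lists were chosen with earlier results of these data known. All 10 members are named, with at most 4 tested genes from each other list by smallest p, and the 6 most alike in profile. Nostrin is named besides for its level, Cd53 for its detection and Ptprc as the end of its list's range. Undetected genes named as examples have no p and were chosen after their detection was seen. As alternatives, values were recomputed without background correction, from the authors' processed intensities, with median scaling, an offset of 50, other filters and probe rules, array weights, sex or replicate number as a term, and with single arrays omitted. The precision is limited by the 6 arrays.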

Additional observations from a re-analysis of the deposited data

How the results depend on the processing

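No endothelial gene passed the adjusted threshold by limma under any of the 17 alternatives run, including the one with no filter on dim probes, in which all 10 genes were tested. Vwf kept its sign in its 16 alternatives, with log2 differences from 0.34 to 1.34 and adjusted p from 0.155 to 0.933. At an unadjusted p under 0.05 it was the 1 member called with array weights, with sex as a term and without Dnmt3a-deleted replicate 2. Of all 11370 genes these settings called 2221, 1664 and 1339 at that threshold, against 593 in the main fit. Esam ran from -0.075 to 0.20 over the arrays left out, and was -0.023 with array weights. The number of endothelial genes detected was 2 with each array left out and with a detection p under 0.01, 1 when all 6 arrays were required and 7 when 1 array sufficed. These filters other than the all-array one were chosen after seeing the data. Over all genes 1 passed (Tff2), against 15 with array weights and 0 to 1 with an array left out. With array weights the sign turned for Nrp1 (-0.015), Nrp2 (-0.040), Lyve1 (0.32), Hbb-bs (0.18), Hbb-bt (0.29) and Epcam (0.053), and Cd52 (-1.05) and Cd3e (-1.31) passed the threshold. With an array left out, the log2 difference of Vegfa ran from -0.045 to 0.35 and that of Lyve1 from -0.42 to 0.069. Causes were not tested. With the replicate number as a block, 0 members and 1 gene of all passed, and Vwf had an adjusted p of 0.758. The numbers did not pair the mice: correlations of same-numbered deviations were -0.12, -0.11 and 0.04, and 2 of 6 samples correlated best with their own number. Slides were not used here. Signals near background limit what can be said of 8 of the 10 genes.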
